A study of Mus musculus with 38 samples.

Results

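Developmental pluripotency associated (Dppa) genes were followed while mouse embryonic stem cells (mESCs) left pluripotency under retinoic acid (RA). The 5 members were Dppa2, Dppa3, Dppa4, Dppa5a and Gm6083, a Dppa5a-like copy, out of 23479 genes in the bulk table. They were chosen by name, with the early loss of Dppa3 and the level of Dppa5a in XEN-like cells already known, so these levels are described here without a test. The cells were mESCs of the E14 line, kept without feeders in modified 2i medium with LIF and then exposed to 0.25 µM all-trans RA in N2B27 medium. Bulk libraries covered mESCs (2 libraries) and a single library at each of 6, 12, 24, 36, 48, 60, 72, 84 and 96 h of RA exposure. At 96 h, cells positive for CD24 and negative for PDGFRA (ectoderm-like, 2 libraries) were sorted from cells positive for PDGFRA and negative for CD24 (XEN-like, that is, like extraembryonic endoderm, 2 libraries). Further single libraries came from PDGFRA-negative cells split into 4 quartiles of CD24 staining at 48 h and 3 terciles at 72 h, from PDGFRA-positive, CD24-negative cells at 72 h, and from sorted cells propagated with EGF and FGF2 as an ectoderm-like culture at passage 5 and a XEN-like culture of floating aggregates at 3 weeks. Single cells were profiled by SCRB-seq, which counts molecules by unique molecular identifiers (UMIs), at 0, 6, 12, 24, 36, 48, 60, 72 and 96 h, and by SMART-seq2, which reads whole transcripts, at 0, 12, 24 and 48 h.

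Dppa genes were named for transcription that follows pluripotency, and they do not form 1 protein family. Dppa2 and Dppa4 are neighbouring paralogues whose SAP-domain proteins act as a pair on chromatin and activate germline and 2-cell genes. Dppa3, also called Stella or PGC7, is a maternal and primordial germ cell factor that restrains UHRF1 and with it maintenance DNA methylation. Dppa5a, also called Esg1, encodes a KH-domain RNA-binding protein that is abundant in mESCs. Gm6083 is annotated as a processed pseudogene, an intron-less copy of Dppa5a.

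In GRCm38 with the GENCODE M21 annotation, Dppa4 lies at chr16:48283733-48294237 and Dppa2 at chr16:48303908-48319723, both on the plus strand with 9670 bases between them. Dppa3 lies at chr6:122626410-122630272 on the plus strand and Dppa5a, with 3 exons, at chr9:78367052-78368177 on the minus strand. Gm6083 is a single exon at chr5:29538153-29538509 on the plus strand. Its 357 bases align without a gap to the 357 coding bases of Dppa5a, with 11 differences and 96.9% identity. The first 300 coding bases of both are shown because they hold all 11 differences. These decide whether a read from the coding part can be given to one copy or the other. Capitals mark the differing bases.
Dppa5a: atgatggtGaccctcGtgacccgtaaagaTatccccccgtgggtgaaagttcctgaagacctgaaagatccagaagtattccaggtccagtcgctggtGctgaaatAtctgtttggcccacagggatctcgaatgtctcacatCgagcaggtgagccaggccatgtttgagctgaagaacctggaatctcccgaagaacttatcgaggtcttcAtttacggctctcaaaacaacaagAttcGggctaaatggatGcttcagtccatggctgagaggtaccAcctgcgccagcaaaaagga
Gm6083: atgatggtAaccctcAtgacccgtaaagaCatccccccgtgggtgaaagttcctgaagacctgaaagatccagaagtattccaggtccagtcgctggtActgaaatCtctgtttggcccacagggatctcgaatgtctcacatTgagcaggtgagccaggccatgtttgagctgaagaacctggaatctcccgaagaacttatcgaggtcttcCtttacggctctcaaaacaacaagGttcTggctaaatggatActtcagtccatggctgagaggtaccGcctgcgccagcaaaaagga
Counted from the A of the ATG, with the Dppa5a base first, the differences are G9A, G16A, T30C, G99A, A107C, C144T, A214C, A238G, G242T, G255A and A281G. The last 76 coding bases, 282 to 357, are identical. Of the 312 possible stretches of 46 bases, the length of the reads counted in the bulk and SCRB-seq libraries, 78 (25%) are the same in both copies. For the 25-base reads of SMART-seq2, 154 of 333 (46.2%) are. Reads from such stretches cannot be assigned by their own sequence, so values of Dppa5a and Gm6083 are uncertain. These shares are of positions in the coding part and do not measure how many counts were affected. The Dppa5a transcript of 619 bases also has 184 bases after its coding part, which the annotated Gm6083 lacks. SMART-seq2 reads came in pairs, and pairs were not examined.

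The 25 bulk libraries held between 1063830 and 2459483 UMIs. Values are UMIs per 1000000 (CPM) with exact Poisson 95% intervals for single libraries, which cover counting error only. Sorted cells carried the markers of their labels. All 11 XEN markers tested, including Gata6 and Sox17, were higher in XEN-like than in ectoderm-like cells, and all 11 ectoderm markers, including Pax6 and Sox1, were lower (edgeR quasi-likelihood test, adjusted p below the threshold). Pdgfra and Cd24a are on these lists and code for the proteins used to sort, so their calls do not check the labels. Several other list genes are markers by which the study named its own single-cell clusters. Ectoderm markers still summed to 323 and 611 CPM in the XEN-like libraries, against 2803 and 3270 in the ectoderm-like ones, and XEN markers summed to 485 and 1779 CPM in the ectoderm-like libraries, against 6664 and 12049. In bulk samples, fewer cells expressing a gene and less RNA of it per cell cannot be told apart.

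Dppa2 and Dppa4 were higher before they fell. Dppa2 stood at 137 and 59.6 CPM in the mESC libraries. It reached 322 CPM at 6 h (95% interval 298 to 347), 414 CPM at 12 h (388 to 441), 283 at 24 h and 218 at 36 h, and was 94.7 CPM at 48 h, 37.8 at 60 h, 28.3 at 72 h, 19.2 at 84 h and 20.0 at 96 h. All 4 libraries from 6 h to 36 h were above both mESC libraries, and all 4 from 60 h on were below both. Against the pooled mESC level of 98.2 CPM, Dppa2 was 3.28 times as high at 6 h (2.90 to 3.70) and 4.22 times at 12 h (3.77 to 4.73). Of 5481 genes with at least 50 mESC UMIs, 5475 had a lower ratio to mESC at 12 h than Dppa2. The 2 mESC libraries differed 2.30-fold for Dppa2, so that the 12 h ratio was 3.02 against the first and 6.94 against the second.

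Dppa4 followed the same order at a smaller amplitude. Its mESC libraries gave 64.7 and 43.5 CPM, followed by 106 at 6 h, 118 at 12 h (104 to 133), 88.7 at 24 h, 62.9 at 36 h, 51.6 at 48 h, 27.6 at 60 h, 16.9 at 72 h, 15.6 at 84 h and 11.3 at 96 h. The 12 h level was 2.17 times the pooled mESC level (1.82 to 2.59), and the 36 h and 48 h levels lay within the range of the mESC libraries. Dppa2 UMIs outnumbered Dppa4 UMIs 2.11-fold and 1.37-fold in the mESC libraries, between 3.03-fold and 3.52-fold from 6 h to 36 h, and between 1.23-fold and 1.83-fold from 48 h on. Dppa2 therefore rose more than Dppa4 within the same libraries. At 12 h, 2 of the 5 members were at least 2-fold above mESC, where 1.48% of 5481 genes were. There is a single library at each of these times, so no test of a time point against mESC was made.

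Dppa3 was lost first. It was counted 99 and 80 times in the mESC libraries (43.3 and 34.8 CPM), 66 times at 6 h, 35 times at 12 h and 8 times at 24 h. From 36 h to 96 h each library held 3 or fewer UMIs of Dppa3, and the 72 h library held none. In CPM, the 6 h level was 32.3 (24.96 to 41.1), which overlaps the mESC libraries, whereas the 12 h level of 15.4 (10.7 to 21.4) and the 24 h level of 3.99 (1.72 to 7.85) lay below both. These are 39.5% and 10.2% of the pooled mESC level of 39.1 CPM. At 12 h Dppa3 was the only member at least 2-fold below mESC, as were 5.53% of all genes compared.

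Dppa5a declined more slowly and did not reach such low levels. The mESC libraries held 25131 and 36412 UMIs (10993 and 15849 CPM). It then stood at 9966 CPM at 6 h, 9330 at 12 h, 7568 at 24 h, 6218 at 36 h and 3446 at 48 h, and between 2152 and 2941 CPM from 60 h to 96 h. Each of the 9 libraries was below both mESC libraries. At 24 h, when Dppa3 was at 10.2% of mESC, Dppa5a was at 56.4%. At 96 h Dppa5a was at 0.184 of the mESC level (0.179 to 0.190), above 0.160 at 84 h (0.155 to 0.165). Gm6083 had a like course, with 53.1% of mESC at 24 h and 18.3% at 96 h. At 36 h Dppa3, Dppa5a and Gm6083 were at least 2-fold below mESC, as were 10.8% of genes, and at 96 h all 5 members were, as were 10.7%. The median gene stood at between 0.989 and 1.13 times its mESC level over these libraries.

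**Figure D1:**
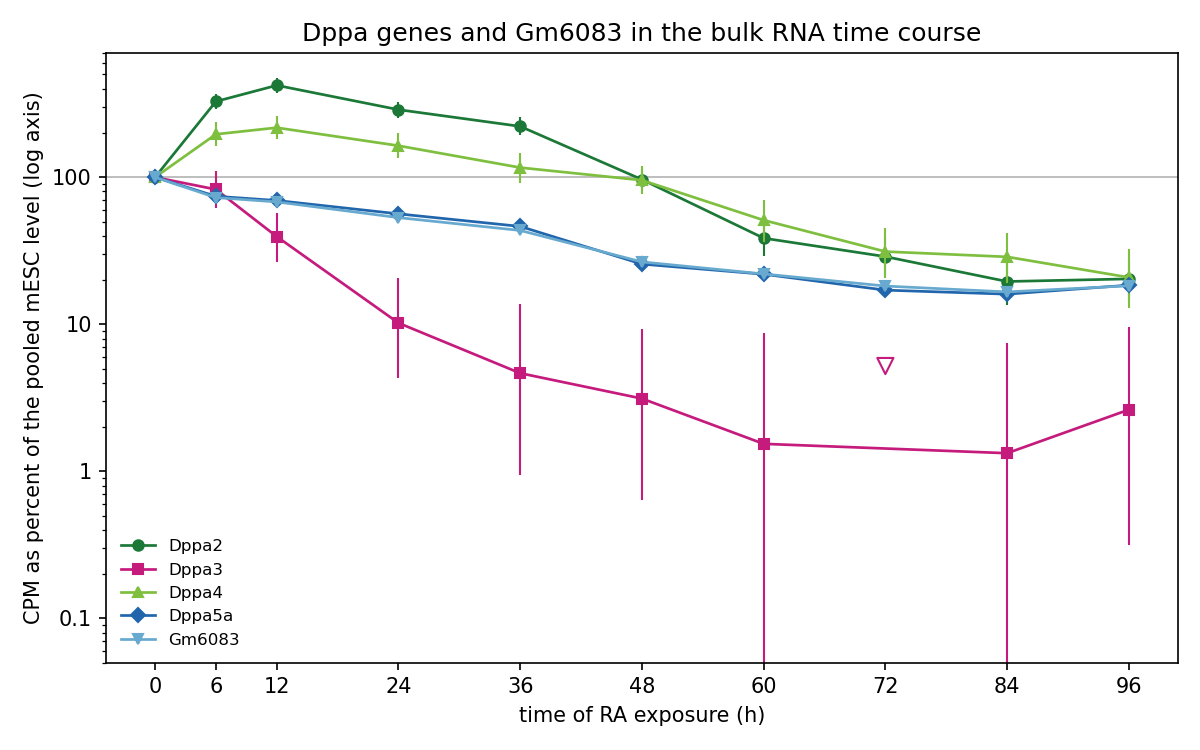
Bulk level of each member against time of RA exposure in hours, as a percent of the pooled level of the 2 mESC libraries on a log axis. Points are single libraries, vertical lines are exact 95% intervals of the ratio (those of Dppa3 at 60 h and 84 h run below the axis), and the open triangle is the upper limit for Dppa3 at 72 h, which held 0 UMIs and which the Dppa3 line skips. Dppa2 and Dppa4 peak at 12 h at 422% and 217%, Dppa3 drops to 10.2% at 24 h, and Dppa5a and Gm6083 decline together to 18.4% and 18.3% at 96 h.

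Single cells also showed Dppa2 and Dppa4 rising before they fell and Dppa3 lost early, but Dppa2 fell below mESC later than in bulk. SCRB-seq files held 3456 wells, of which 2448 with more than 2000 UMIs were kept as cells, 137 to 335 per time point, with median depths between 3559.5 and 5069 UMIs. All 9 files use the same set of well names, which are plate positions and not shared cells. Cells of a time point come from a single plate and are not replicates, so pooled UMIs per 10000 are given with Poisson intervals. Dppa2 rose from 0.488 per 10000 UMIs in mESCs to 2.11 at 6 h and 2.70 at 12 h, and stood at 1.14 at 48 h and 0.0688 at 96 h (5 UMIs). Dppa4 went from 0.382 to 1.02 at 12 h and 0.406 at 48 h, with 0 UMIs at 96 h, where 137 cells allow a share of up to 2.19% with a UMI. At a common depth of 2000 UMIs, the expected share of cells with a Dppa2 UMI was 6.83% in mESCs and 36.0% at 12 h, and for Dppa4 7.67% and 17.8%. Without thinning these shares were 15.6% and 60.7% for Dppa2 and 17.4% and 36.5% for Dppa4.

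At this depth Dppa3 was counted in a minority of mESCs. A UMI was found in 52 of 282 cells (18.4%, exact binomial interval 14.1 to 23.5), and a single cell held up to 10 of the 105 UMIs. Cells with a UMI numbered 36 of 335 at 6 h, 4 of 285 at 12 h, 12 of 290 at 24 h, 3 of 334 at 36 h and 1 of 277 at 48 h. The 24 h plate, with 18 UMIs (0.118 per 10000, 0.0696 to 0.186), was above the 12 h plate, with 5 (0.0261, 0.00847 to 0.0609), so the pooled level did not fall at every step. None of the 645 cells at 60, 72 and 96 h had a Dppa3 UMI, which puts the pooled level at least 69.8-fold below that in mESCs when 3 UMIs over these cells are taken as the limit. Dppa5a was found in every mESC and in 257 of 277 cells at 48 h. Its pooled level was 46.5 per 10000 in mESCs, 30.3 at 24 h, 13.4 at 48 h, 7.12 at 60 h, 3.42 at 72 h and 3.45 at 96 h.

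SMART-seq2 values are read counts adjusted for transcript length and depth (RPKM), which can be compared between genes, scaled here to the median total of the mESCs. In 82 mESCs, the median was 2176 scaled RPKM for Dppa5a, 106 for Dppa2, 82.9 for Dppa4, 13.004 for Dppa3 and 10.1 for Gm6083. Dppa2 had a median of 301 at 12 h (86 cells), 296 at 24 h (89 cells) and 88.8 at 48 h (82 cells), and Dppa4 of 195, 162 and 94.6. Both were above 1 in every cell at 12 h. The lower quartile at 12 h lay above the upper quartile in mESCs for Dppa2 (224 against 148) and Dppa4 (143 against 113), so the higher level was spread over most cells. Dppa3 was above 1 in 42 of 82 mESCs (51.2%, 39.9 to 62.4), 17 of 86 cells at 12 h, 11 of 89 at 24 h and 5 of 82 at 48 h (6.10%, 2.01 to 13.7). Dppa5a kept its median until 24 h, with 2192 scaled RPKM at 12 h and 2311 at 24 h, and was at 594 at 48 h, still above 1 in all 82 cells. In the bulk and SCRB-seq data Dppa5a was at 56.4% and 65.2% of mESC at 24 h, and the reason for this difference between the assays was not tested.

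**Figure D2:**
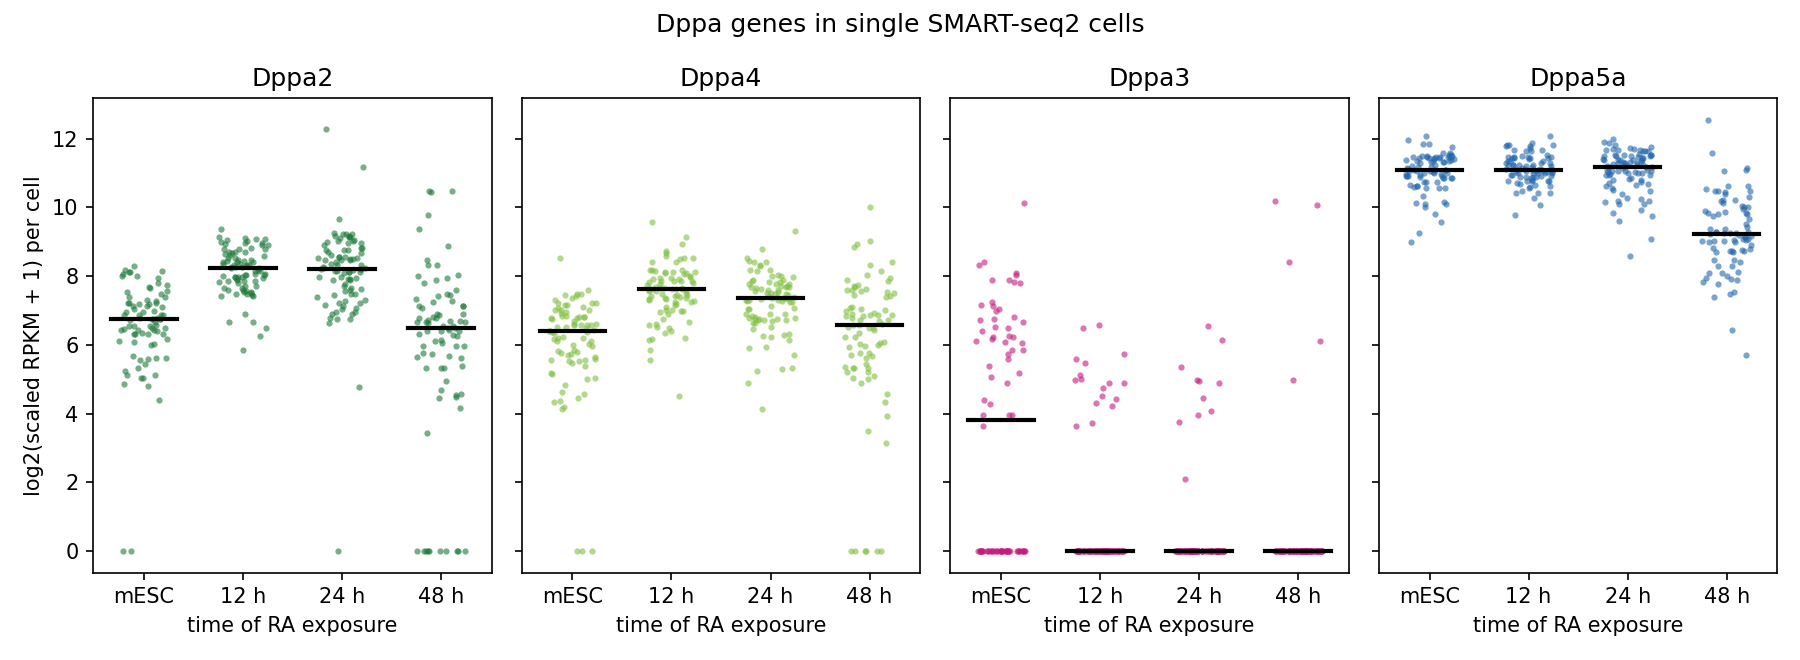
SMART-seq2 level of 4 Dppa genes in single cells, as log2(scaled RPKM + 1), in 82 mESCs and in 86, 89 and 82 cells at 12, 24 and 48 h of RA exposure. Each point is a cell and the black bar is the median. Dppa2 and Dppa4 are higher at 12 h than in mESCs, Dppa3 is above 1 in 42 of 82 mESCs and in 5 of 82 cells at 48 h, and Dppa5a drops between 24 h and 48 h.

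Whether a mESC expressed Dppa3 went with little else among these genes. The 42 mESCs with Dppa3 above 1 and the 40 others had median Dppa5a of 2119 and 2209 scaled RPKM, median Dppa2 of 106 and 103, and median Dppa4 of 73.3 and 94.4, in each case within the other's quartiles. Zfp42 (Rex1), a marker of naive pluripotency, had medians of 545 and 600. At 48 h, 3 cells stood far above the rest for Dppa3, with 1170, 1074 and 341 scaled RPKM. They had 880, 1402 and 468 scaled RPKM of Dppa2, against a median of 88.8 over all 48 h cells. Dppa5a was at 533, 6012 and 2263 in them and Zfp42 at 0, 449 and 36.9, so they did not share one level of either. None of the 3 had a value for Pdgfra, Prdm1 or Tfap2c, the latter pair being primordial germ cell factors. The median of each of these genes over all 48 h cells was 0, so this does not set the 3 cells apart. Within cells Dppa2 and Dppa4 were hardly related, with a Spearman rho between -0.03 and 0.27 over the 4 time points, each over 82 to 89 cells that share a sample.

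The gates separated the members. At 48 h Dppa5a was at 5702, 5728, 5153 and 3717 CPM from the lowest to the highest CD24 quartile. At 72 h it was at 3983, 1627 and 1052 CPM from the lowest to the highest CD24 tercile, and at 6921 CPM in PDGFRA-positive cells (6782 to 7062). The PDGFRA-positive level exceeded that of each of the 7 PDGFRA-negative gates and was 3.09 times the pooled level of the 72 h terciles (3.00 to 3.18). It amounted to 51.5% of mESC. Dppa2 went the other way between the same 72 h libraries, with 117, 66.2 and 33.003 CPM in the terciles and 21.3 (14.3 to 30.6) in PDGFRA-positive cells, a ratio of 0.295 (0.194 to 0.434). Dppa4 had 34.96, 30.9 and 27.6 CPM in the terciles and 12.5 in PDGFRA-positive cells, a ratio of 0.401 (0.226 to 0.670).

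Of the 4 members with at least 50 UMIs over these 72 h libraries, Dppa5a and Gm6083 were at least 2-fold higher in PDGFRA-positive cells, as were 8.31% of 6101 genes, and Dppa2 and Dppa4 at least 2-fold lower, as were 14.9%. Dppa3, with 15 UMIs over the 72 h gates, was too rare for a ratio. Along the CD24 gradient at 72 h, the ratio of the highest to the lowest tercile was 0.222 for Gm6083 (0.191 to 0.257), 0.264 for Dppa5a (0.249 to 0.280), 0.281 for Dppa2 (0.196 to 0.397) and 0.790 for Dppa4 (0.495 to 1.25). At 48 h the ratio of the highest to the lowest quartile was 0.670, 0.652, 0.664 and 0.614 in the same order. At 48 h the gates held between 169 and 255 CPM of Dppa2 while the unsorted 48 h library held 94.7. For Dppa5a the gates held between 3717 and 5728 CPM and the unsorted library 3446, and for Gm6083 between 739 and 1103 CPM against 631. For Dppa3 the gates held between 3.76 and 8.21 CPM, on 4 to 13 UMIs, against 1.22 CPM on 3 UMIs. Every 48 h gate was thus above the unsorted culture for Dppa2, Dppa3, Dppa5a and Gm6083. The cause of this difference was not tested, and the difference bears on any share of mESC given for gated cells.

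**Figure D3:**
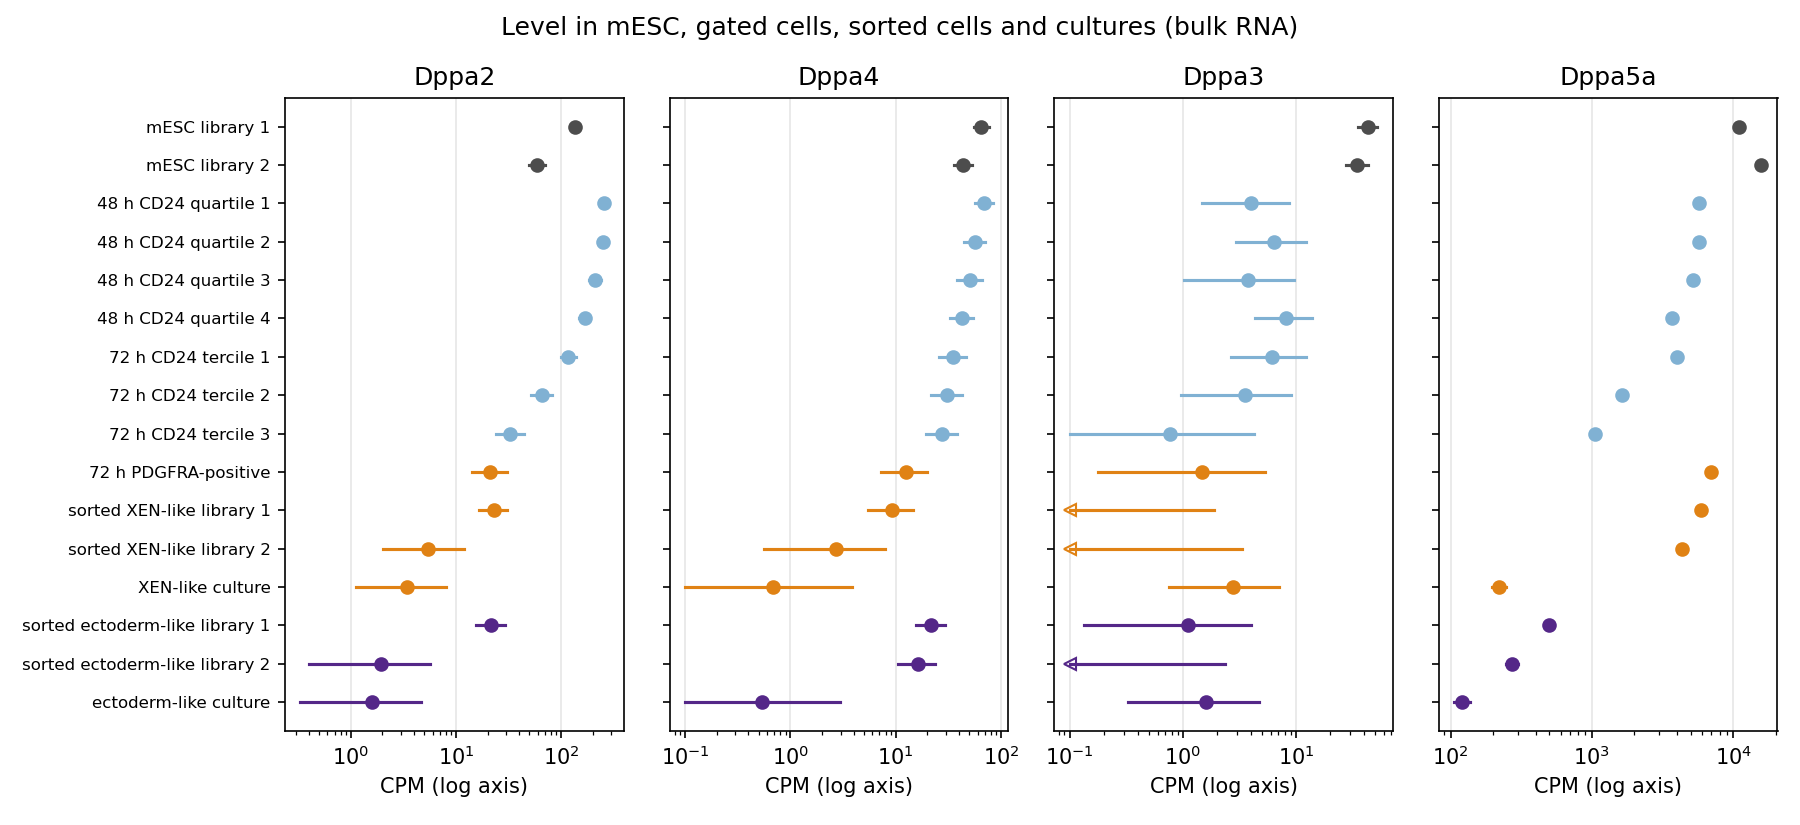
Level in CPM on log axes, 1 panel per gene, in mESCs (grey), PDGFRA-negative gates (blue), PDGFRA-positive or XEN-like cells (orange) and ectoderm-like cells (purple). Points are single libraries, lines are exact Poisson 95% intervals drawn from 0.1 CPM upward, and open triangles are libraries with 0 UMIs. Dppa5a is between 4351 and 6921 CPM in PDGFRA-positive and sorted XEN-like cells and between 273 and 494 CPM in sorted ectoderm-like cells, whereas Dppa2 and Dppa4 are at 22.9 CPM or below in all of these.

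In cells sorted at 96 h, Dppa5a was at 5947 and 4351 CPM in the XEN-like libraries (5149 ± 1128, SD, n = 2) and at 494 and 273 CPM in the ectoderm-like libraries (383 ± 156, n = 2). The groups did not overlap. In the fit of edgeR with TMM scaling, Dppa5a was 14.5-fold higher in XEN-like than in ectoderm-like cells (log2 3.86 ± 0.34, SE), 3.04-fold lower in XEN-like cells than in mESCs and 44.1-fold lower in ectoderm-like cells than in mESCs. As a share of the pooled mESC CPM, XEN-like cells kept 40.04% (39.4 to 40.7) and ectoderm-like cells 2.91% (2.76 to 3.08). Gm6083 gave 40.4% and 2.83%. The 12 markers of remaining pluripotent cells, Zfp42 and Pou5f1 among them, summed to 176 and 329 CPM in the XEN-like and to 161 and 303 CPM in the ectoderm-like libraries, against 2849 and 2977 in mESCs. Their sum was at 9.42% and 8.14% of mESC in the 2 lineages, but not through the same genes. Nanog, named after its values were seen, gave 205 and 78.8 CPM of the sum in the ectoderm-like libraries and 96.0 and 52.9 CPM in the XEN-like ones, while Zfp42 and Pou5f1 were higher in XEN-like cells. Of the 12, 4 were higher and 1 lower in XEN-like than in ectoderm-like cells, and 7 did not pass the edgeR test. Their part in the level of Dppa5a was not tested.

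Dppa3 was at the opposite end. No UMI of Dppa3 was found in either XEN-like library, which puts it at least 39.9-fold below mESC when 3 UMIs over both libraries are taken as the limit, and the ectoderm-like libraries held 2 and 0. Whether Dppa3 differed between the lineages was not detectable at this depth.

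Dppa2 and Dppa4, the 2 members for which a test was made, were lower than in mESCs in both lineages, as were 10.5% of 8947 genes for XEN-like cells and 9.28% for ectoderm-like cells. Dppa2 stood at 22.9 and 5.47 CPM in the XEN-like libraries and at 21.7 and 1.94 CPM in the ectoderm-like libraries. It was 7.57-fold lower in XEN-like cells (log2 -2.92 ± 0.72, edgeR adjusted p = 0.0123) and 10.1-fold lower in ectoderm-like cells (log2 -3.33 ± 0.73, edgeR adjusted p = 0.00771) than in mESCs. Both calls were lost with DESeq2 (adjusted p = 0.104 and 0.063), and each was lost when the second sorted library of its group was left out (edgeR adjusted p = 0.0724 for XEN-like and 0.0564 for ectoderm-like cells). The second library was the lower one in both groups.

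Dppa4 stood at 9.14 and 2.73 CPM in the XEN-like libraries and at 21.7 and 16.2 CPM in the ectoderm-like libraries. It was 9.68-fold lower in XEN-like cells (log2 -3.27 ± 0.45, edgeR adjusted p = 0.000394) and 3.53-fold lower in ectoderm-like cells (log2 -1.82 ± 0.39, edgeR adjusted p = 0.0066) than in mESCs. The second of these calls was lost without the second ectoderm-like library (edgeR adjusted p = 0.0823). Between the lineages the groups did not overlap, with the higher values in ectoderm-like cells, but the difference of 2.74-fold did not pass the test (edgeR adjusted p = 0.0666), in a comparison where 12.7% of genes were called. The call depended on the fit: Dppa4 was called lower in XEN-like cells with the replicate as a block (edgeR adjusted p = 0.00411) and without the filter on low counts (edgeR adjusted p = 0.0221). For Dppa2 the same comparison gave log2 0.41 ± 0.78 (edgeR adjusted p = 0.793), so that a difference in either direction was not detectable at this depth.

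**Figure D4:**
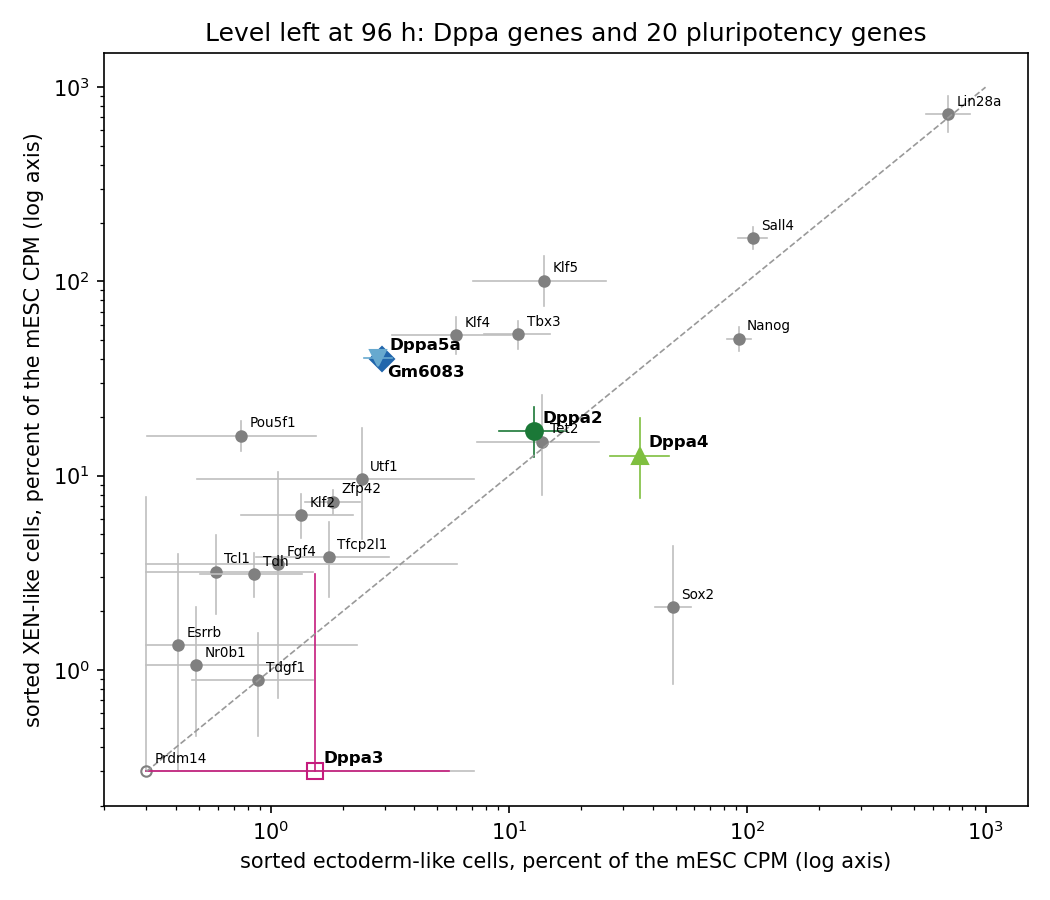
Level left in sorted XEN-like (vertical) against sorted ectoderm-like cells (horizontal) at 96 h, both as percent of the pooled mESC CPM on log axes, for the 5 members in colour and 20 pluripotency genes in grey. Lines are exact 95% intervals, open symbols are genes at 0 in a lineage, drawn at 0.3%, and the dashed line marks equal levels. Dppa5a and Gm6083 lie above that line at 40% against 2.9%, near Klf4 and Tbx3, Dppa4 lies below it, and Dppa3 sits at the lower edge.

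Dppa5a was not alone among pluripotency-related genes in keeping a large share of its mESC level in XEN-like cells. Klf4, Klf5, Tbx3, Nanog, Sall4 and Lin28a kept larger shares than its 40.04%. Of the 20 genes on the naive and core pluripotency list, 17 were lower in XEN-like cells than in mESCs, 1 was higher and 2 did not pass the test, with a median log2 change of -4.20 against -0.06 over all genes tested, where 12.3% of genes were called higher. In ectoderm-like cells 17 were likewise lower, 1 higher and 2 without a call, with a median of -6.11 and 9.85% of all genes called higher. The gene that was higher in both lineages was Lin28a, an RNA-binding protein. In XEN-like cells the 2 without a call were Klf5 and Sall4, all named after their values were seen. In ectoderm-like cells the pair was another one, as it held 1 of the 12 markers of remaining pluripotent cells, which do not include Klf5. Klf5 kept 14.04% and Nanog 92.04% of the mESC CPM there. Between XEN-like and ectoderm-like cells, 8 of the 20 were higher in XEN-like cells, 1 was lower and 11 did not pass, with a median of 1.55, while 6.99% of all genes were called higher and 5.74% lower. By size of the change, Sox2, a factor shared with neural progenitors, came first with 20.6-fold lower levels in XEN-like cells (log2 -4.37, edgeR adjusted p = 0.000853). Pou5f1 (Oct4) was higher by log2 4.29 (edgeR adjusted p = 0.00253), Klf4 by 3.12 (edgeR adjusted p = 0.0014) and Klf5 by 2.72 (edgeR adjusted p = 0.0322). Klf4, at 52.8% of the mESC CPM in XEN-like cells against 5.99% in ectoderm-like cells, and Tbx3, at 53.3% and 10.9%, lay closest to Dppa5a in the plot of levels left at 96 h. Zfp42 kept 7.36% and 1.83%.

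The lists built around each member's known role are given by their counts. Around Dppa5a, 2 of 5 KH-domain genes were counted often enough for a test. Khdc3 and Ooep, which code for proteins of the maternal subcortical complex, were lower than in mESCs in both lineages. Ooep was higher in XEN-like cells (21.3 and 8.20 CPM) than in ectoderm-like cells (5.00 and 1.94 CPM), by log2 2.19 ± 0.60 (edgeR adjusted p = 0.0348), but far below the mESC libraries at 163 and 305 CPM. It is named after its values were seen, as the neighbour of Dppa5a in the annotation. None of the 4 maternal complex partners passed the filter on low counts. Around Dppa3, 3 of 8 genes of the DNA methylation machinery were lower in XEN-like cells than in mESCs and none was higher, and in ectoderm-like cells 4 were lower and 2 higher. Over all genes tested, 10.5% were lower and 12.3% higher in XEN-like cells, and 9.28% and 9.85% in ectoderm-like cells. Dnmt3l, a cofactor of de novo methylation, was the 1 gene of the 8 called between the lineages, a share close to the 12.7% of all genes, with 130 and 65.6 CPM in the XEN-like libraries against 6.67 and 3.88 CPM in the ectoderm-like ones (log2 4.27 ± 0.55, edgeR adjusted p = 0.00118). It was at 74.4 and 27.4 CPM in the mESC libraries.

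Around Dppa2 and Dppa4, 11 of 20 genes of the 2-cell and germline programmes passed the filter. In XEN-like cells 6 of the 11 were lower than in mESCs and none was higher, and in ectoderm-like cells 6 were lower and 2 higher, beside the same shares over all genes. Between the lineages 1 of the 11 was called, a share below that of all genes. It was Tdrkh, a piRNA pathway gene, with 0 and 1 UMIs in the XEN-like libraries, 11 and 10 in the ectoderm-like ones and 0 in both mESC ones, so that it passed the filter on low counts through the group where it was high and its call says nothing of the list. The list summed to 749 and 447 CPM in the 2 mESC libraries, in the order in which Dppa2 differed between them. Dazl, a germline RNA-binding gene named after its values were seen, had 403 and 29 UMIs there. In the unsorted time course the list did not rise with Dppa2. It summed to 345 CPM at 6 h and 482 CPM at 12 h, when Dppa2 was above both mESC libraries. In gated cells the list reached higher sums. It was at 895, 916, 893 and 642 CPM from the lowest to the highest CD24 quartile at 48 h. At 72 h it was at 1067, 543 and 262 CPM over the CD24 terciles and 91.1 CPM in PDGFRA-positive cells. Dppa2 declined in the same order over these 72 h gates. Whether the list goes with Dppa2 was not tested.

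In single cells split by lineage markers, the ratio of Dppa5a between the groups was larger at each later plate. SCRB-seq cells of each plate from 48 h on were ranked by XEN markers minus ectoderm markers, lists that hold no member, and the top and bottom groups, of 45 to 92 cells each (1 in 3 cells), were compared. Dppa5a was at 13.4 UMIs per 10000 in XEN-marker-high and 11.5 in ectoderm-marker-high cells at 48 h, at 8.24 and 5.47 at 60 h, at 5.53 and 2.02 at 72 h, and at 6.38 and 0.355 at 96 h. The ratio was 1.16 (1.03 to 1.31) at 48 h, 1.51 (1.29 to 1.75) at 60 h, 2.73 (2.10 to 3.59) at 72 h and 17.99 (8.54 to 45.4) at 96 h, counting error only. The 96 h value depended on the cells compared: it was 6.58 when every cell was put in an upper or a lower group. The level in ectoderm-marker-high cells was lower at each later plate, whereas in XEN-marker-high cells the 72 h and 96 h levels had overlapping intervals. XEN markers summed to 4.96 per 10000 in XEN-marker-high and 2.09 in ectoderm-marker-high cells at 48 h, and to 225.7 and 29.2 at 96 h. Ectoderm markers summed to 7.96 and 25.7 at 48 h, and to 9.001 and 29.2 at 96 h. The groups were thus further apart in XEN markers at 96 h, and the part of this in the larger Dppa5a ratio was not tested. At 96 h, 30 of 45 XEN-marker-high and 6 of 45 ectoderm-marker-high cells had a Dppa5a UMI, at median depths of 4436 and 3764 UMIs. The markers of remaining pluripotent cells summed to 5.37 per 10000 in XEN-marker-high and 7.50 in ectoderm-marker-high cells at 96 h, whereas in the sorted bulk cells their sum was at 9.42% of mESC for XEN-like and 8.14% for ectoderm-like cells. Their part in the level of Dppa5a was not tested here either. At 96 h, 12.5% of 1621 genes with at least 50 UMIs over both groups were at least 2-fold higher in XEN-marker-high cells. Dppa5a (170 against 7 UMIs) and Gm6083 (63 against 2) were among them. Both passed that minimum only through the XEN-marker-high group, so their place among these genes adds nothing to the ratio.

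XEN-marker-high cells at 96 h were at 13.7% of the pooled mESC level of Dppa5a in SCRB-seq, against 40.04% in the sorted bulk cells. The 2 values come from different definitions of the cells and from different library types. Dppa2 and Dppa4 had few UMIs in these groups. For Dppa2 the ratio was 0.748 (0.481 to 1.15) at 48 h, 2.37 (1.20 to 5.04) at 60 h and 1.02 (0.554 to 1.87) at 72 h, with no constant direction. For Dppa4 it was 0.532 (0.222 to 1.19) at 48 h, 0.908 (0.382 to 2.18) at 60 h and 4.76 (1.33 to 25.8) at 72 h, where 14 and 3 UMIs were counted. The 72 h value lies on the other side of 1 from the ratio of 0.401 between the PDGFRA gates. In SMART-seq2 at 48 h, the 10 cells with Pdgfra above 5 had a median Dppa5a of 563 scaled RPKM (quartiles 290 and 931), the 24 other cells with the highest Cd24a 438 (267 and 607), and the remaining 48 cells 795 (504 and 1208). At this time cells with Pdgfra did not exceed the remaining cells, which were not chosen for a lack of Cd24a.

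**Figure D5:**
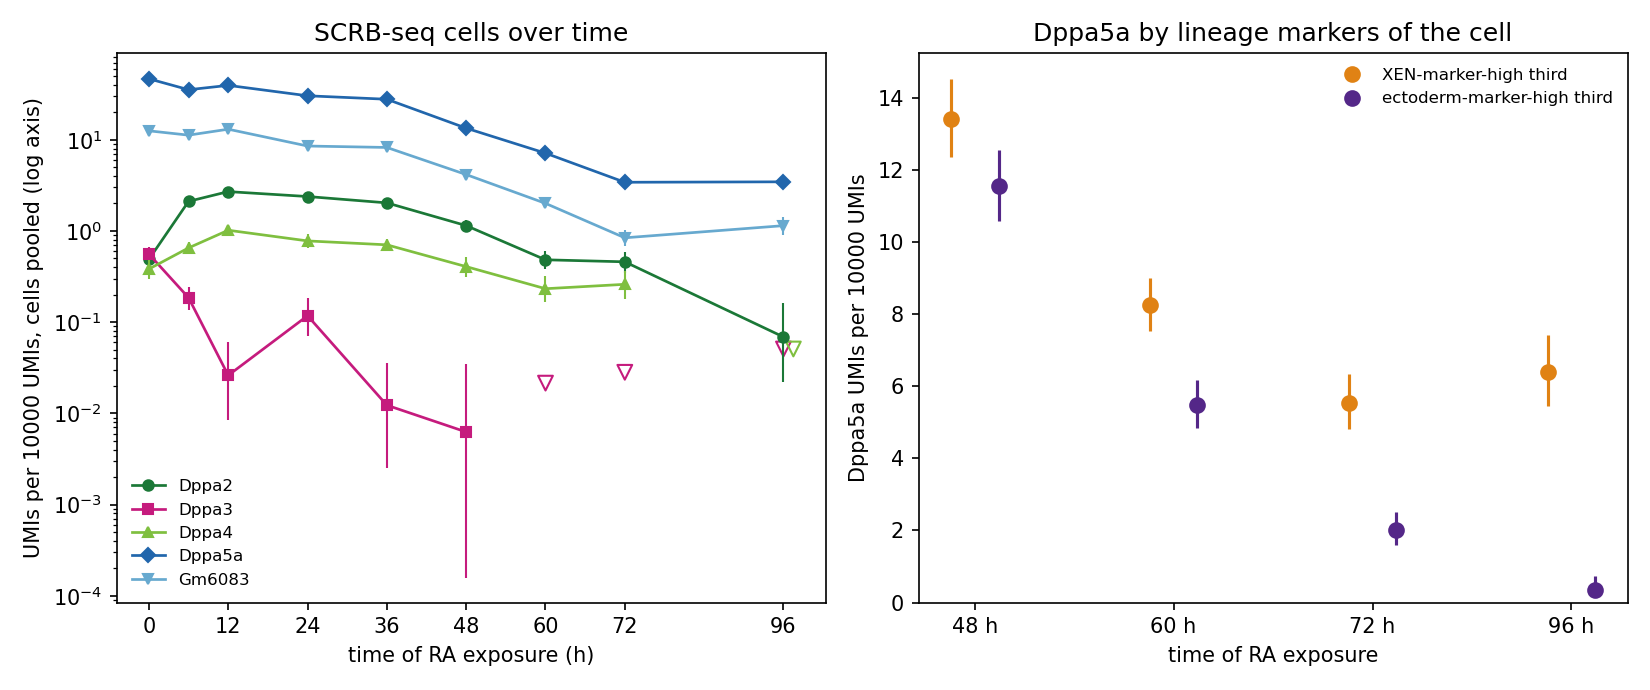
Left, pooled UMIs per 10000 UMIs of each member in SCRB-seq cells against time of RA exposure in hours, on a log axis. Right, Dppa5a in the cells with the highest XEN and the highest ectoderm markers at 48, 60, 72 and 96 h. Vertical lines are exact Poisson 95% intervals, and open triangles on the left are upper limits where 0 UMIs were counted (that of Dppa4 at 96 h is moved sideways). On the right the values go from 13.4 against 11.5 at 48 h to 6.38 against 0.355 at 96 h.

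The level of Dppa5a in XEN-like cells was not seen after propagation. The XEN-like culture held 319 UMIs of Dppa5a (220 CPM, 197 to 246), 0.0409 of the level in sorted XEN-like cells, and the ectoderm-like culture 227 UMIs (121 CPM, 106 to 138), 0.310 of the level in sorted ectoderm-like cells. These are 1.64% and 0.905% of the mESC level, so that the difference between the lineages was below 2-fold in the cultures. Dppa2 was counted 5 and 3 times in the XEN-like and ectoderm-like culture, Dppa4 once in each and Dppa3 4 and 3 times. Each culture is a single library.

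Gm6083 could not be separated from Dppa5a as a gene of its own in the counted data. Its UMIs amounted to a median of 17.7% of those of Dppa5a over the 25 bulk libraries, from 8.81% in the ectoderm-like culture and 11.9% in the XEN-like culture to 19.9% in the highest CD24 quartile at 48 h. Over a range of Dppa5a from 121 to 15849 CPM the log2 levels had a Pearson r of 0.997, over libraries that share the reference and the counting. In SCRB-seq the share was higher, between 24.6% at 72 h and 33.1% at 12 h. In SMART-seq2, which gives RPKM over whole transcripts, mean Gm6083 was 25.99 scaled RPKM in mESCs beside 2222 for Dppa5a, 30.99 beside 2305 at 12 h, 44.7 beside 2272 at 24 h and 17.1 beside 818 at 48 h. Gm6083 was above 1 in 52.4% of mESCs, 74.4% of cells at 12 h, 92.1% at 24 h and 37.8% at 48 h, so from mESCs to 24 h its mean was higher at each time while that of Dppa5a stayed between 2222 and 2305. The share thus depended on the assay, and read sharing between the copies was not tested.

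The genes with the profile most like each member over the 25 bulk libraries, among 8049 genes with at least 250 UMIs, are given as a description. They were Kifc2, B3gnt7 and Gm10324 for Dppa2 (Pearson r of log2(CPM + 1) from 0.952 to 0.968), and Fkbp6, Syce2 and Stk31 for Dppa4 (0.935 to 0.946). Fkbp6, Syce2 and Stk31 are known from the germline, and Stk31 is also on the list of the 2-cell and germline programmes. For Dppa3 they were Dpys, Gsta3 and 1700097N02Rik (0.860 to 0.878), and for Dppa5a Pigp, Trim6 and L1td1 (0.910 to 0.942), the last an RNA-binding protein of pluripotent cells. Among the members, Dppa2 and Dppa4 had r = 0.907, whereas Dppa3 reached 0.618 with Dppa2 and 0.509 with Dppa5a.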

How the data were processed

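Bulk and SCRB-seq tables hold UMI counts per gene. Following the authors' methods, reads of 46 bases were aligned with BWA 0.7.4 to mouse RefSeq transcripts of mm10 and unique UMIs were counted, and the deposited values are these raw counts. The SMART-seq2 tables hold RPKM that the authors made with TopHat and Cuffnorm, and hold no read counts, so the depth of each cell is unknown here beyond a minimum that the study set. No member was missing from any table. Bulk rows of 2 damaged genes, Gkn2 and Rn45s, were left out, and between 0.127% and 0.140% of SMART-seq2 values, spelled with a comma, were read as 0 (none belonged to a member). RPKM were divided by the cell's total and multiplied by the median mESC total.

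mESC, sorted ectoderm-like and sorted XEN-like libraries (2 each) were tested in 1 fit with edgeR 4.0.16 in R 4.3.3 (filterByExpr, TMM, quasi-likelihood test, Benjamini-Hochberg adjustment over 8947 genes, threshold 0.05), tested on simulated data. In a simulation of XEN-like against ectoderm-like cells on 8446 genes, 68.9% of 4-fold and 11.5% of 2-fold changes were called. The study calls the libraries of all 3 conditions biological replicates, without saying whether they came from separate cultures, so p-values measure the spread between these libraries. The 2 libraries of each group differed beyond counting noise. Single libraries and pooled cells have exact intervals (confidence level 95%) and no test. A limit for 0 counts uses 3 counts. SCRB-seq wells needed more than 2000 UMIs. No doublet caller was run. The mapping of groups used the labels only.

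The members and gene lists were chosen with earlier results of these data known. Genes named are the 5 members, at most 6 list genes with the largest change between XEN-like and ectoderm-like cells among those called, and the 3 genes most like each member. Further list genes (Zfp42, Tbx3, Nanog, Lin28a, Sall4, Khdc3, Ooep and Dazl) were named after their values were seen. Marker lists of mesoderm and primordial germ cells, chosen to check for other cell types, summed to at most 19.5 and 78.4 CPM in the sorted libraries. Alternatives were DESeq2 1.42.0, its size factors, no filter, leaving out each library, a replicate block, other scalings, other well minimums, other cell splits and other detection limits. Sequences and positions came from GENCODE M21 (GRCm38, the assembly named mm10).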

Additional observations from a re-analysis of the deposited data

Results flagged for a closer look

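Among the members, Dppa3 was the only one for which the ratio of the highest to the lowest CD24 gate lay on opposite sides of 1 at the 2 times, with 2.05 at 48 h (13 against 6 UMIs, interval 0.725 to 6.56) and 0.123 at 72 h (1 against 8 UMIs, interval 0.00278 to 0.921). Each gate is a single library and the difference between the times was not tested. No group had more than 2 samples, so no sample was compared with its group for standing apart.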

How the results depend on the processing

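The number of genes called without each library in turn was 1267 to 1662 for XEN-like cells against mESCs (2042 with all libraries), 876 to 1351 for ectoderm-like cells against mESCs (1711) and 296 to 667 for XEN-like against ectoderm-like cells (1139). These fits hold fewer samples. The difference of Dppa2 between the lineages ranged from log2 -0.86 to 2.97 without each library in turn, and turned to -0.32 without ectoderm-like replicate 2 and to -0.86 without XEN-like replicate 1, never past the threshold. The cause was not tested.

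The replicate numbers are shared only as numbers. Library 1 of both lineages deviated from its group mean in part together (Pearson r = 0.333 over genes, 2 pairs). With the replicate as a block in the 4 sorted libraries, 2620 genes were called, against 1261 without it, and Dppa4 was called lower in XEN-like cells (edgeR adjusted p = 0.00411). Without a filter on low counts Dppa4 was also called (edgeR adjusted p = 0.0221).

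Relative to Actb, the 12 h ratio was 3.39 for Dppa2 and 1.75 for Dppa4. Against a single mESC library the ratio was 3.02 or 6.94 for Dppa2 at 12 h, 1.82 or 2.70 for Dppa4 at 12 h, and 0.313 or 0.217 for Dppa5a at 48 h. The last was 0.203 with TMM, 0.249 relative to Gapdh and 0.202 relative to Actb. The ratio of Dppa5a between PDGFRA-positive and PDGFRA-negative gates was 3.50 with TMM and 2.79 relative to Gapdh. All 44 ratios of the time course lay on the same side of 1 under TMM, Gapdh and Actb scaling. Ranking all cells at 96 h into an upper and a lower group gave a Dppa5a ratio of 6.58.

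Depth limits Dppa3 after 24 h, Dppa2 and Dppa4 in sorted cells and cultures, and every single-library value, which has no replicate.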
